A study of Homo sapiens with 28 samples.

Results

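The genes described here encode the nuclear subunits of the mitochondrial respiratory chain and the ATP synthase. They were chosen by the form of their symbol (the NDUF, SDH, UQCR, COX and ATP5 families and CYC1) and by a mean of at least 1 CPM, the depth-scaled count of a gene, over all 28 libraries. Of 61815 human genes in the table, 147 had such a symbol and 80 reached the minimum. Of the 67 that did not, 62 had pseudogene symbols and the other 5 were COX8C, ATP5MGL, COX6B2, COX6A2 and COX7A1. The lowest members were COX7B2 with a mean of 7.44 CPM, UQCRFS1P1 with 10.5 and UQCRHL with 12.0, and the highest gene under the minimum was COX8C with 0.0702. The rule also names the subunits that mitochondrial DNA encodes, but 0 rows were found for them, so they were not analysed here and nuclear genes could not be compared with them. All 80 members are therefore nuclear genes: 36 of complex I, 4 of complex II, 10 of complex III, 11 of complex IV, 18 of the ATP synthase (complex V) and 1 pseudogene, UQCRFS1P1.

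The respiratory chain sits in the inner mitochondrial membrane. Complex I takes electrons from NADH and complex II takes them from succinate, complex III passes them to cytochrome c, and complex IV hands them to oxygen. The protons pumped on the way drive the ATP synthase, and most of the subunits are encoded in the nucleus and imported. Prostate epithelium is known for a metabolism that secretes citrate, and prostate cancer cells for a shift back to its oxidation.

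The RNA came from LNCaP, a prostate cancer cell line that responds to androgen, labelled wild type. The cells had been kept for 72 h in charcoal-stripped serum, poor in steroid hormones, before any treatment. In the first experiment the cells received DMSO vehicle, the CDK8/19 inhibitor Senexin B (1 µM), the synthetic androgen R1881 (0.1 nM) or R1881 with Senexin B for 24 h, with 3 libraries per group. In the second they received vehicle, the CDK8/19 inhibitor SNX631 (500 nM), R1881 (1 nM) or R1881 with SNX631 for 72 h, with 4 libraries per group. CDK8 and CDK19 are the kinases of the Mediator complex. Doses are as the labels state them, and the text of the study names another dose of Senexin B. Time, androgen dose, inhibitor and experiment changed together between the experiments and cannot be told apart. Totals ran from 9846595 to 33809419 counts per library, the highest in vehicle 24 h replicate 3 and the next 15248512, and the member with the fewest reads, COX7B2, had 2739 counts over the 28 libraries. The summed level of 8 luminal markers was 2890 to 5070 CPM, basal markers (KRT5, KRT14, TP63) summed to 0 to 0.447 and leukocyte markers to 0.337 to 1.4. Of the 3 fibroblast markers, COL1A1 lay between 7.44 and 30.9 CPM and COL1A2 and DCN at or under 0.173, and their part in the results was not tested. Levels are given in CPM scaled by TMM, and a gene is said to have risen or fallen where edgeR's quasi-likelihood test gave a false discovery rate (FDR) under 0.01 over all genes tested. In bulk RNA, a change in the number of cells or in the RNA of each cell cannot be told apart.

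The 80 genes together were highest where R1881 and an inhibitor were combined. At 24 h their summed level was 11683 ± 227 CPM in vehicle (mean ± SD, n = 3), 11881 ± 294 with Senexin B, 11944 ± 365 with R1881 and 12705 ± 152 with both. At 72 h it was 10453 ± 91.1 in vehicle (n = 4), 10533 ± 189 with SNX631, 11020 ± 276 with R1881 and 11664 ± 140 with both. The combined group lay above every other library of its experiment, from 12535 to 12829 CPM at 24 h and from 11558 to 11862 CPM at 72 h. R1881 alone overlapped vehicle at 24 h (11686 to 12362 against 11470.1 to 11922) but not at 72 h (10680.4 to 11347 against 10335 to 10535). As a plain share of all counts, without TMM scaling, the members took 1.18 to 1.22% in vehicle and 1.2 to 1.21% in the combined group at 24 h, and 1.1 to 1.12% and 1.1 to 1.14% at 72 h, so these shares overlapped.

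**Figure D1:**
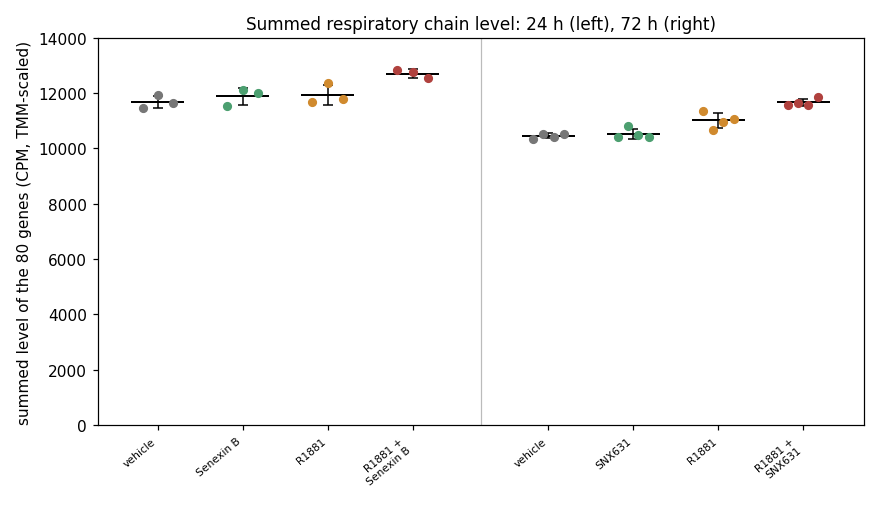
Summed level of the 80 nuclear respiratory chain genes in each of the 28 libraries (vertical axis, TMM-scaled CPM) by treatment group (horizontal axis), with 24 h to the left of the line and 72 h to the right. Points are libraries, horizontal bars are means and error bars are SDs. The groups with both R1881 and an inhibitor stand highest in each experiment, at means of 12705 and 11664 CPM.

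The androgen effect on these genes was small and, relative to the bulk of genes, mostly upward, with NDUFB4 as the main exception. At 24 h, R1881 raised 16 of 80 members, against 26.3% of all genes tested, and lowered 2, against 22.1%. At 72 h it raised 33 of 80, against 27.6%, and lowered 1, against 24.6%. The members' median log2 fold change was 0.05 at 24 h and 0.11 at 72 h, and the medians over all genes were -0.02 and -0.01. The share of members that rose was thus under that of all genes at 24 h and above it at 72 h, while the share that fell was lower at both times. Of the 18 members that passed at 24 h and the 34 at 72 h, 14 passed in the same direction in both, 13 upward and 1 downward. That is 17.5% of the members, against 39.3% of the 15681 genes tested in both experiments. With the libraries scaled by their totals alone, the median of all genes moved to -0.09 at 24 h and -0.12 at 72 h. All-gene calls then split into 20.9% up and 29.8% down at 24 h and 19.9% and 35.4% at 72 h, and members into 6 up and 13 down and 9 up and 9 down. The members' median stood above that of all genes by 0.07 and 0.12 under either scaling, so the changes below are relative to the bulk of genes. The count of 2 that fell at 24 h was 1 without vehicle replicate 1 or 2 or R1881 replicate 3, and 4 without R1881 replicate 2. It was 9 with the trend on GC content and length removed, where 25.1% of all genes fell, and 10 with the replicate block as well, where 25.4% did.

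**Figure D2:**
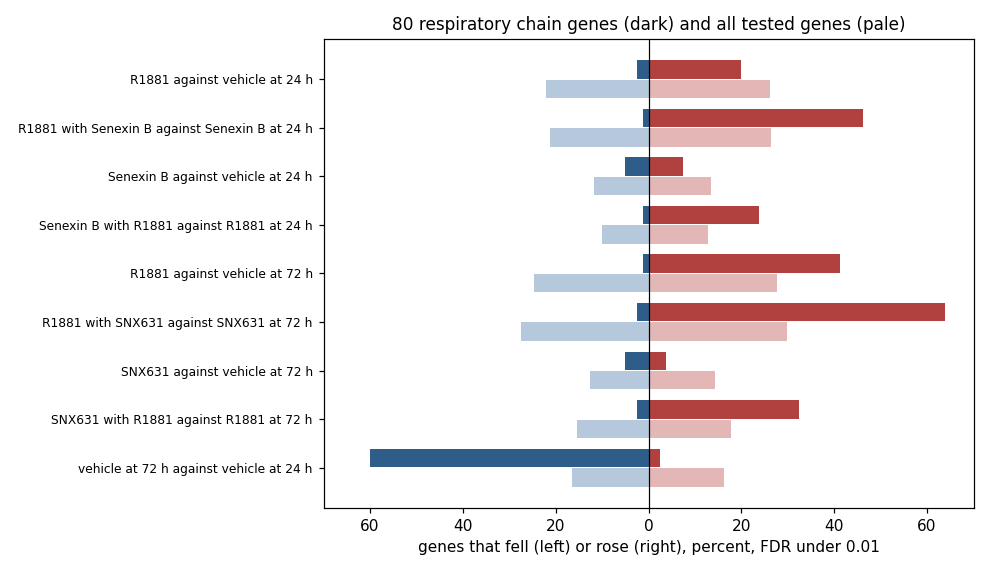
Percent of genes that rose (right) or fell (left) at an FDR under 0.01 in each of 9 comparisons (vertical axis), for the 80 members (dark bars) and for all genes tested (pale bars). The dark bars to the right are longer than the pale ones for R1881 under either inhibitor, for either inhibitor in the presence of R1881, and for R1881 at 72 h, and the bar of 60% to the left belongs to vehicle at 72 h against vehicle at 24 h.

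NDUFB4, an accessory subunit of the membrane arm of complex I (chromosome 3, 120596309 to 120602500, plus strand, GRCh38), was the member that fell most with androgen. At 24 h its level was 406, 417 and 414 CPM in the vehicle libraries and 259, 261 and 262 with R1881. In the later experiment it was 431, 438, 440 and 434 CPM in vehicle and 284, 254, 266 and 277 with R1881. Every R1881 library lay far below every vehicle library. The log2 fold change was -0.66 (SE 0.032, FDR 2.99e-18) at 24 h and -0.70 (SE 0.028, FDR 8.3e-23) at 72 h. NDUFB4 was the only member whose change with R1881 alone exceeded 1.5-fold, and 9.19% and 10.1% of all genes passed that limit downward at 24 h and 72 h. The other member that fell at 24 h was NDUFA10, an accessory subunit of complex I, at -0.15 (SE 0.045, FDR 0.00547).

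Some other complex I subunits rose. Of the 6 members with the highest mean change among those that rose with R1881 in both experiments, 4 belonged to this complex and the other two to the ATP synthase. NDUFC1, a small accessory subunit of the membrane arm (chromosome 4, 139266880 to 139302551, minus strand), went from 47.1, 45.5 and 45.5 CPM in vehicle to 57.6, 64.9 and 66.5 with R1881 at 24 h. At 72 h it went from 40.3, 41.1, 36.6 and 41.7 CPM to 51.1, 50.7, 55.7 and 53.0. The groups did not overlap at either time, and the log2 fold changes were 0.46 (SE 0.054) and 0.39 (SE 0.048). NDUFC2, its neighbour in the complex (chromosome 11, 78068304 to 78080219, minus strand), rose from 46.4, 47.3 and 48.2 CPM to 57.8, 66.5 and 60.4 at 24 h and from 42.2, 40.3, 40.2 and 41.4 to 58.1, 53.2, 52.4 and 54.3 at 72 h. These are log2 fold changes of 0.37 (SE 0.050) and 0.40 (SE 0.045), again with no overlap. NDUFS8, a core subunit that carries iron-sulfur clusters, rose from 75.8, 76.7 and 75.5 CPM to 95.1, 98.0 and 92.8 at 24 h (0.33, SE 0.042) and from 67.0, 69.8, 71.9 and 72.8 to 88.3, 88.4, 86.4 and 89.6 at 72 h (0.32, SE 0.037). NDUFA6, an accessory subunit of the matrix arm, rose by 0.25 (SE 0.045) and 0.33 (SE 0.041), from 52.4 to 56.4 CPM in vehicle to 63.5 to 65.7 at 24 h and from 48.7 to 53.6 to 61.5 to 67.9 at 72 h. Over complex I, 7 of 36 subunits rose at 24 h, where 26.3% of all genes did, and 14 at 72 h, where 27.6% did, so at 24 h the share of complex I was below that of all genes. Reads of NDUFC2 may be split with the readthrough gene NDUFC2-KCTD14 and those of NDUFC1 with NAA15 on the opposite strand, since the use of strand in counting is not stated in the sources used here. Fractional values made up 53.6% of those of NDUFS8, 46.4% of NDUFC2 and 32.1% of NDUFC1, so their levels are uncertain.

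**Figure D3:**
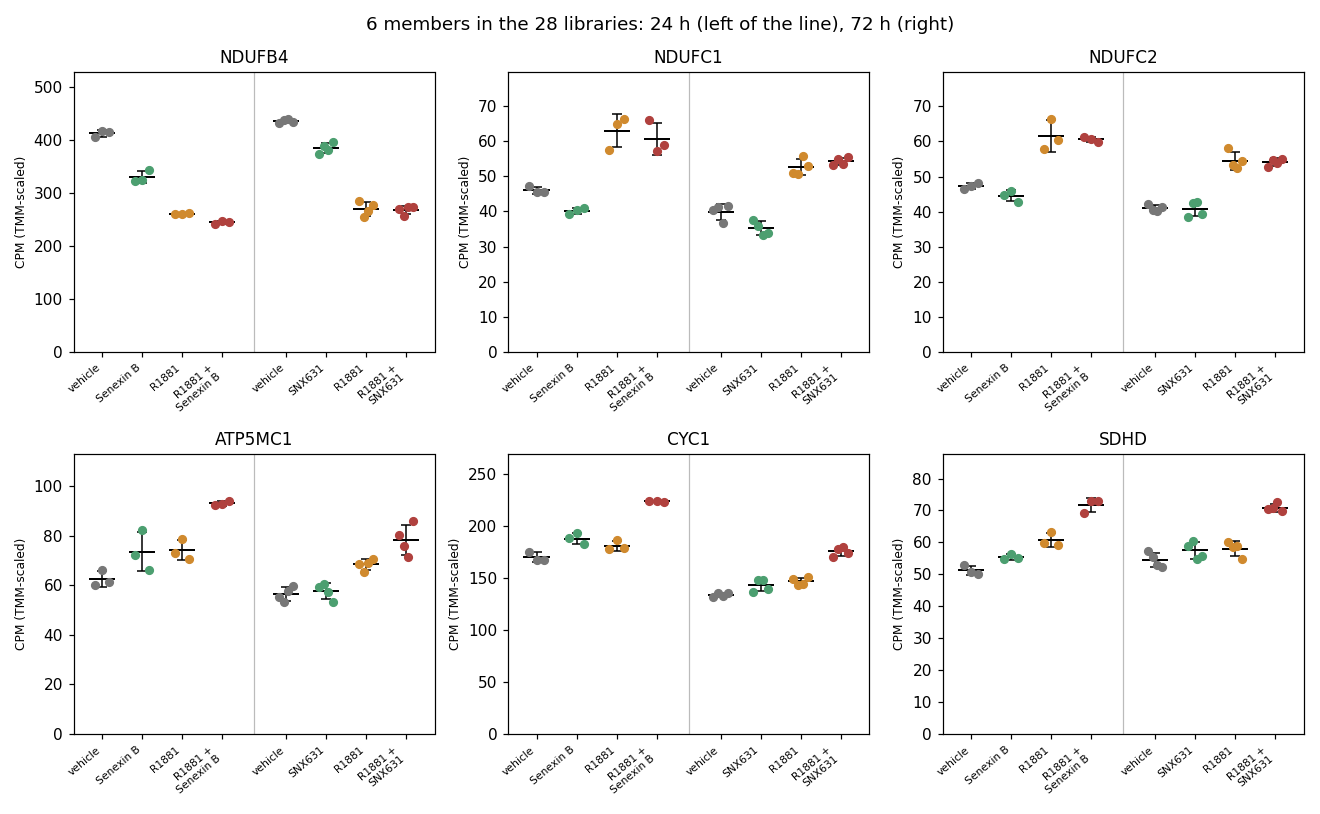
Level of NDUFB4, NDUFC1, NDUFC2, ATP5MC1, CYC1 and SDHD (vertical axes, TMM-scaled CPM, each from 0) in the 28 libraries by treatment group, with 24 h to the left of the line and 72 h to the right. Points are libraries, horizontal bars are means and error bars are SDs. NDUFB4 is lower and NDUFC1 and NDUFC2 are higher in every library with R1881 than in the vehicle libraries, while CYC1 and SDHD are highest where R1881 and an inhibitor were combined.

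In the ATP synthase, 7 of 18 subunits rose with R1881 at 24 h and 9 at 72 h, where 26.3% and 27.6% of all genes rose. ATP5MC1, 1 of 3 genes for the same subunit c of the proton-driven ring, was at 60.3, 66.3 and 61.4 CPM in vehicle and 73.0, 78.5 and 70.8 with R1881 at 24 h. At 72 h it was at 55.1, 53.1, 57.9 and 59.7 CPM in vehicle and 68.6, 65.3, 69.0 and 70.7 with R1881. The groups did not overlap, and the log2 fold changes were 0.24 (SE 0.056, FDR 0.000421) and 0.27 (SE 0.051, FDR 1.57e-05). ATP5MF, the membrane subunit f, rose by 0.16 (SE 0.040) at 24 h, from 93.0, 97.0 and 94.1 CPM to 107, 106 and 106, and by 0.26 (SE 0.043) at 72 h, from 74.2, 74.9, 79.9 and 80.3 to 93.6, 87.8, 96.1 and 95.6. ATP5MF shares a locus and strand with PTCD1 and the readthrough gene ATP5MF-PTCD1, and 78.6% of its values were fractional, so its level is uncertain. With library totals as the scaling, the changes of ATP5MC1 and ATP5MF at 24 h kept their direction and lost the call.

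With R1881 at 24 h, 1 of 4 subunits of complex II rose and 1 of 10 of complex III, where 26.3% of all genes rose. Neither share was above that of all genes. SDHD, a membrane anchor of succinate dehydrogenase, rose from 52.9, 50.6 and 50.2 CPM to 59.7, 63.1 and 59.1 (0.25, SE 0.047), without overlap. UQCRFS1, the Rieske iron-sulfur protein of complex III, rose from 108, 103 and 108 CPM to 117, 124 and 116 (0.15, SE 0.040). At 72 h, SDHD was at 0.08 (SE 0.042, FDR 0.0871) and did not pass, and UQCRFS1 rose by 0.23 (SE 0.037). CYC1, the cytochrome c1 subunit of complex III, was at 0.09 (SE 0.035, FDR 0.0237) at 24 h and rose by 0.13 (SE 0.031) at 72 h. SDHA, the flavoprotein of complex II, was at -0.01 at 24 h and rose by 0.11 (SE 0.036, FDR 0.00763) at 72 h, but this call was lost when any of 7 libraries was left out (FDR 0.0103 to 0.0364): vehicle 72 h replicates 1, 2 and 3, R1881 72 h replicates 2, 3 and 4 and SNX631 replicate 3. With the trend on GC content and length removed, the calls of SDHD (0.11) and UQCRFS1 (0.06) at 24 h were lost. In complex IV, which reduces oxygen, 3 of 11 subunits rose at 72 h, namely COX8A (0.16), COX6B1 (0.13) and COX5A (0.12), a share close to the 27.6% of all genes that rose. Of 25 alternative runs, the 72 h calls of CYC1, COX6B1 and COX8A were each kept in 24 and that of SDHA in 14. The lowest changes in those runs were 0.03 for CYC1, 0.03 for COX6B1, 0.06 for COX8A and 0.01 for SDHA.

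**Figure D4:**
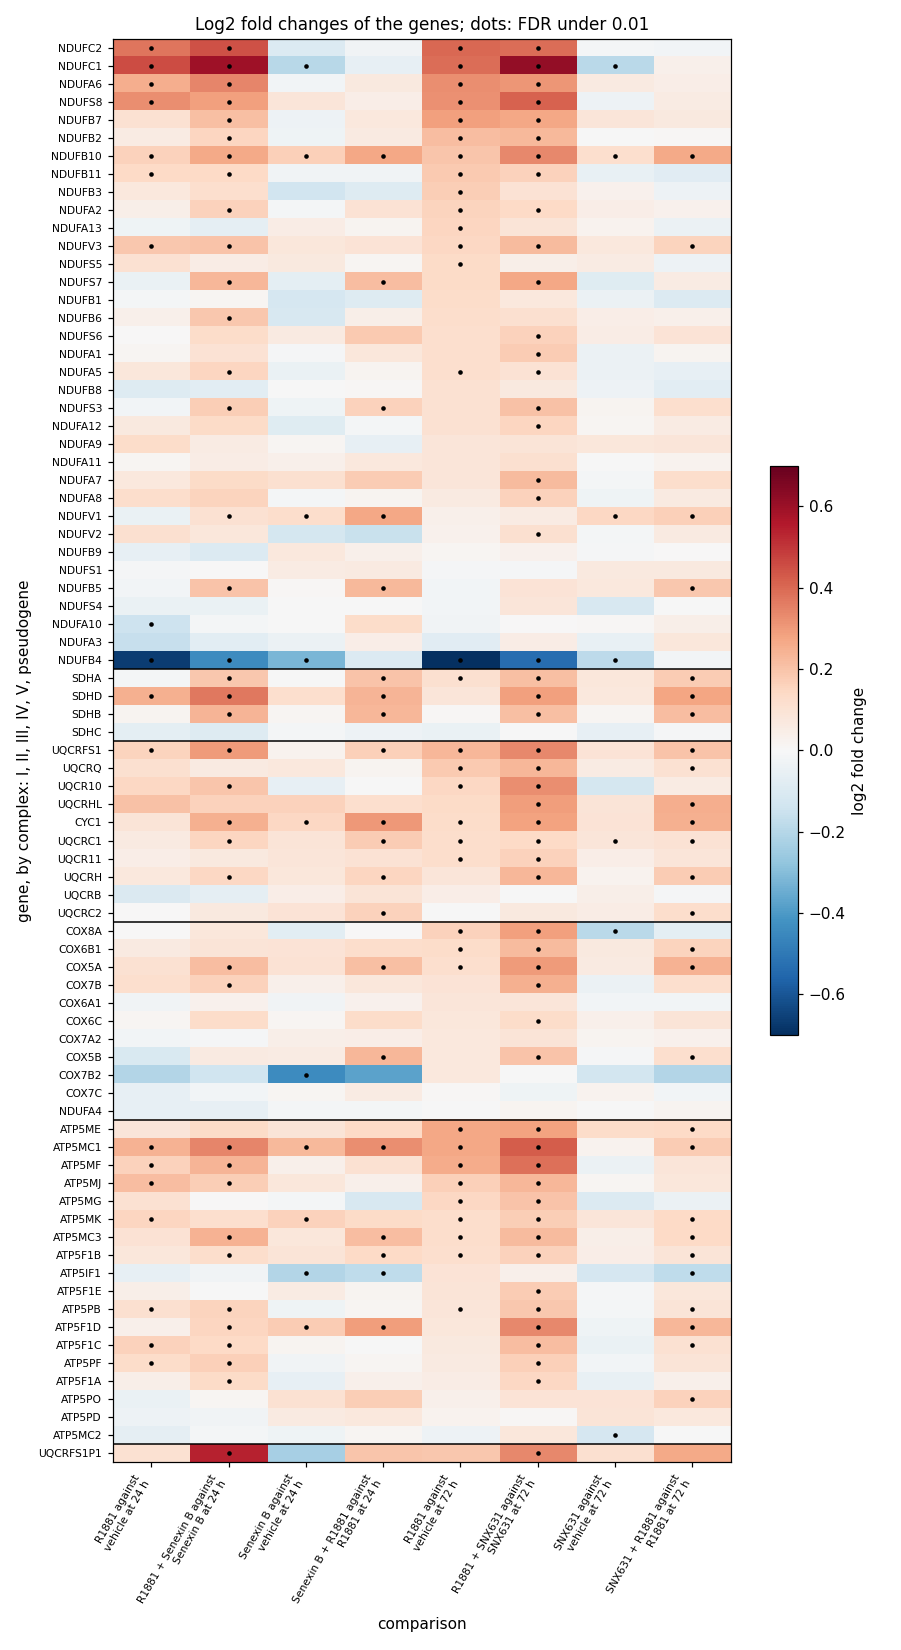
Log2 fold change (colour) of the members reported here (rows, ordered within each complex by the change with R1881 at 72 h) in 8 comparisons (columns). Black dots mark an FDR under 0.01 and horizontal lines part the complexes. NDUFB4 is the dark blue row at the foot of complex I in the 4 R1881 columns, and the dots are densest for R1881 under SNX631, with 51 upward.

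Under an inhibitor, R1881 raised members of every complex. With Senexin B present at 24 h, R1881 raised 37 of 80 members (26.3% of all genes) and lowered 1 (21.2%), with a median of 0.13. With SNX631 present at 72 h, it raised 51 of 80 (29.8% of all genes) and lowered 2 (27.5%), with a median of 0.16. The larger counts are not a test of a difference, which is given below as an interaction. NDUFC1 was the only member to rise over 1.5-fold, a limit that 9.97% of all genes passed upward at 24 h and 10.1% at 72 h. It went from 39.2, 40.4 and 40.9 CPM with Senexin B to 65.96, 57.3 and 58.8 with both (0.60, SE 0.059, FDR 2.01e-10), and from 37.6, 35.9, 33.3 and 33.8 with SNX631 to 53.3, 55.0, 53.6 and 55.4 with both (0.61, SE 0.047, FDR 2.46e-14). NDUFB4 fell under both inhibitors, by 0.44 on the log2 scale (SE 0.033) at 24 h and by 0.53 (SE 0.028) at 72 h. With library totals as the scaling, members split into 15 up and 5 down at 24 h and 28 up and 9 down at 72 h. All-gene calls then split into 21.1% up and 28.3% down and into 21.9% and 37.7%. The count of 1 that fell at 24 h was 2 without Senexin B replicate 1, and the count of 2 at 72 h was 1 without SNX631 replicate 2, 3 or 4 or R1881 with SNX631 replicate 2.

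Among the members that rose with R1881 under an inhibitor, 34 did so at both times, out of 37 at 24 h and 51 at 72 h. These are 42.5% of the members, against 23.7% of all genes tested in both experiments. Complex I gave 16 and 19 of its 36 subunits, complex II gave 3 of 4 each time, complex III gave 5 and 8 of 10, complex IV gave 2 and 6 of 11 and the ATP synthase gave 10 and 14 of 18. In all 4 androgen comparisons 12 members rose, or 15% against 19.5% of all genes: NDUFC1, NDUFC2, NDUFS8, NDUFA6, NDUFB10, NDUFB11 and NDUFV3 of complex I, UQCRFS1 of complex III, and ATP5MC1, ATP5MF, ATP5MJ and ATP5PB of the ATP synthase. With library totals as the scaling, 6 members rose with R1881 at 24 h, where 20.9% of all genes did. No more than 6 of these 12 could then rise in all 4 comparisons. A further 15 members, or 18.8% against 20.1% of all genes, passed in none of the 8 comparisons within an experiment, among them NDUFS1, the largest core subunit of complex I, and SDHC, the second membrane anchor of complex II.

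Without androgen, the inhibitors moved few members. Senexin B raised 6 of 80 at 24 h (13.5% of all genes) and lowered 4 (11.7%). SNX631 raised 3 of 80 at 72 h (14.4%) and lowered 4 (12.5%). These shares are below those of all genes, and the members' medians were 0.01 with either inhibitor. With library totals as the scaling, 3 rose and 8 fell with Senexin B (all genes 10.5% and 15.8%), and 1 rose and 6 fell with SNX631 (12.1% and 15.3%). Since doses and times differed, the inhibitors are set side by side and were not compared. NDUFB4 fell with each: the Senexin B libraries were at 323, 325 and 344 CPM against 406 to 417 in vehicle (-0.32, SE 0.031, FDR 8.09e-10), and the SNX631 libraries at 373, 388, 381 and 396 against 431 to 440 (-0.19, SE 0.027, FDR 7.08e-07). NDUFC1 fell by 0.19 with each (SE 0.057 and 0.051), to 39.2 to 40.9 CPM with Senexin B and to 33.3 to 37.6 with SNX631. The SNX631 range overlapped the vehicle range of 36.6 to 41.7 CPM.

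The members called in the same direction with both inhibitors were 4 of 80, or 5%, against 16.3% of all genes. Of those that rose, NDUFB10 and NDUFV1 did so with both. NDUFB10, an accessory subunit of complex I, was at 112, 111 and 111 CPM in vehicle and 125, 129 and 122 with Senexin B (0.17, SE 0.036), and at 105, 104, 101 and 95.0 in vehicle and 109, 113, 107 and 111 with SNX631 (0.12, SE 0.036, FDR 0.00989). NDUFV1, the core subunit that binds NADH, was at 185, 192 and 185 CPM and then 204, 200 and 208 (0.12, SE 0.034), and at 175, 171, 174 and 169 and then 195, 189, 189 and 190 (0.14, SE 0.027). The groups of both genes were apart at both times. Senexin B also raised ATP5MC1 (0.23), ATP5F1D (0.18), ATP5MK (0.16) and CYC1 (0.15), and SNX631 raised UQCRC1 (0.09), a core protein of complex III. The other members that fell were COX7B2 (-0.44) and ATP5IF1 (-0.21), the protein that keeps the ATP synthase from running in reverse, with Senexin B, and COX8A (-0.19) and ATP5MC2 (-0.12) with SNX631.

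Several of these calls were lost when 1 library was left out. That of NDUFC1 was lost without any 1 of the 6 vehicle and Senexin B libraries at 24 h (FDR 0.0187 to 0.0384) and without vehicle replicate 2 or 4 or SNX631 replicate 3 or 4 at 72 h (FDR 0.0111 to 0.0166). NDUFB10 with SNX631 was lost without any of 12 libraries (FDR 0.0101 to 0.0778; all but vehicle 72 h replicate 1, R1881 72 h replicates 1 and 2 and R1881 with SNX631 replicate 4), NDUFV1 with Senexin B without vehicle 24 h replicate 1 or 3 or Senexin B replicate 1 or 3 (FDR 0.0161 to 0.0487), ATP5MC1 without vehicle 24 h replicate 3 or Senexin B replicate 2 (FDR 0.02 and 0.0283) and CYC1 without vehicle 24 h replicate 3 (FDR 0.0146). COX7B2 was lost without any library of its comparison but vehicle 24 h replicate 1 (FDR 0.0128 to 0.111), and ATP5MC2 without vehicle 72 h replicate 2 or 4 or SNX631 replicate 1, 2 or 3 (FDR 0.013 to 0.0443). The count that rose with Senexin B was 2 without vehicle 24 h replicate 3, the deepest library. The count that fell was 2 without vehicle 24 h replicate 2 or 3 or without any Senexin B library. With SNX631, 1 member rose without vehicle 72 h replicate 4, SNX631 replicate 2, R1881 72 h replicate 3 or 4 or R1881 with SNX631 replicate 1 or 3, and 2 fell without vehicle 72 h replicate 2 or 4 or SNX631 replicate 3.

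In the presence of R1881, each inhibitor raised members of all 5 complexes, among them 3 of the 4 subunits of complex II. Senexin B raised 19 of 80 at 24 h (12.7% of all genes) and lowered 1 (9.99%), and SNX631 raised 26 of 80 at 72 h (17.8%) and lowered 2 (15.4%). The median was 0.07 at both times. With both inhibitors 17 members rose, of 19 and 26, or 21.2% of the members against 9.51% of all genes. Complex III gave 5 and 7 of 10 subunits, while complex I gave 5 and 4 of 36, complex IV 2 and 3 of 11 and the ATP synthase 4 and 9 of 18. Whether the complexes differed was not tested. With library totals as the scaling, 16 rose and 4 fell at 24 h (all genes 9.68% and 13.1%), and 16 rose and 2 fell at 72 h (14.7% and 18.9%). The count of 1 that fell at 24 h was 2 without vehicle replicate 1 or 2, Senexin B replicate 2 or 3, R1881 replicate 1 or R1881 with Senexin B replicate 3.

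In complex II, SDHD rose from 59.7, 63.1 and 59.1 CPM with R1881 to 69.1, 73.0 and 73.0 with Senexin B added (0.24, SE 0.047, FDR 0.000181), and from 60.1, 58.5, 58.8 and 54.9 to 70.3, 70.8, 72.6 and 69.7 with SNX631 added (0.28, SE 0.040, FDR 3.73e-07). SDHB, the iron-sulfur subunit, rose from 50.8, 48.3 and 50.1 CPM to 57.9, 57.3 and 60.2 (0.23, SE 0.052) and from 50.2, 46.0, 48.2 and 43.0 to 55.7, 54.0, 56.6 and 52.3 (0.21, SE 0.046). SDHA rose from 76.8, 80.03 and 80.1 CPM to 90.3, 90.1 and 92.3 (0.20, SE 0.041) and from 73.7, 75.9, 77.0 and 78.5 to 87.9, 85.6, 89.3 and 85.3 (0.18, SE 0.034). In all 3 genes the groups were apart at both times. SDHC was the subunit that did not pass: its R1881 libraries were at 158 to 164 CPM at 24 h and 144 to 158 at 72 h, those with inhibitor at 156 to 160 and 147 to 154, and its log2 fold changes were -0.03 (SE 0.035) and -0.01 (SE 0.030). SDHD shares its locus with TIMM8B on the opposite strand, at a mean of 73.8 CPM, and with AP002884.3 on the same strand, at 14.6 CPM. Fractional values made up 53.6% of those of SDHA and of SDHD and 0% of those of SDHB, so the levels of SDHA and SDHD are uncertain.

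In complex III, CYC1 rose from 178, 187 and 179 CPM to 225, 224 and 223 with Senexin B (0.30, SE 0.035, FDR 4.17e-08) and from 149, 144, 144 and 151 to 171, 178, 180 and 174 with SNX631 (0.25, SE 0.030, FDR 8.61e-09). UQCRFS1 rose from 117, 124 and 116 CPM to 136, 136 and 130 (0.17, SE 0.041) and from 115, 110, 115 and 112 to 130, 134, 125 and 134 (0.20, SE 0.035). The 24 h call of UQCRFS1 was lost without R1881 replicate 1 or 3 or R1881 with Senexin B replicate 1 (FDR 0.0144 to 0.0202). Among the core proteins and hinge of the complex, UQCRC1, UQCRC2 and UQCRH also rose with both inhibitors, UQCRH by 0.15 and 0.18, and its 24 h call was lost without R1881 replicate 1 (FDR 0.0315). The near-copies UQCRHL and UQCRFS1P1 may take reads of UQCRH and UQCRFS1, so their values are uncertain.

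In complex I the rise was found in NDUFB10 (0.27 and 0.26), NDUFV1 (0.27 and 0.17) and NDUFB5 (0.22 and 0.19) with both inhibitors. NDUFB10 went from 121, 124 and 129 CPM to 153, 150 and 149 with Senexin B and from 120, 111, 119 and 115 to 135, 137, 143 and 147 with SNX631. In the ATP synthase, ATP5MC1 reached 92.2, 92.7 and 94.1 CPM with R1881 and Senexin B, from 73.0, 78.5 and 70.8 with R1881 alone (0.33, SE 0.056). With SNX631 it reached 80.1, 75.6, 71.3 and 85.8 CPM, from 68.6, 65.3, 69.0 and 70.7 (0.18, SE 0.047), and this call was lost without R1881 replicate 2 or R1881 with SNX631 replicate 4 (FDR 0.0112 and 0.0176). ATP5IF1, named after its values were seen, went the other way: it was at 138, 146 and 134 CPM with R1881 and 123, 121 and 127 with Senexin B added, and at 141, 136, 126 and 137 and then 117, 126, 117 and 121 with SNX631 added. It fell by 0.18 in both, with SEs of 0.041 and 0.036, and the groups did not overlap at either time, although at 72 h the lowest R1881 library (126.4 CPM) stood next to the highest with both (125.8).

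Whether the inhibitor changed the androgen effect was tested as an interaction. At 24 h it was positive for 1 member, NDUFB4 (1.08% of all genes), and negative for 0 (1.02%). In the 72 h experiment it was positive for 3, NDUFB4, COX5A and ATP5F1D (2.99%), and negative for 0 (4.1%). DESeq2 gave 0 negative members at both times too, and 15 and 24 members had an unadjusted p under 0.05 in either direction by edgeR. The share of all genes under that p is not given here, so these counts cannot be set against it. For NDUFB4 the interaction was 0.22 (SE 0.046, FDR 0.00192) at 24 h and 0.16 (SE 0.040, FDR 0.00359) at 72 h. With R1881 present, its level was 241, 246 and 246 CPM with Senexin B and 270, 257, 273 and 274 with SNX631, and its inhibitor effects there were -0.10 (FDR 0.0241) and -0.02 (FDR 0.598). The fall of NDUFB4 with androgen was thus smaller under inhibitor, from a level that the inhibitor had already lowered. The 24 h interaction missed the limit without vehicle replicate 2 or 3, Senexin B replicate 2 or R1881 replicate 1 (FDR 0.01 to 0.0175), and that at 72 h without R1881 replicate 2 or R1881 with SNX631 replicate 3 (FDR 0.0103 and 0.0138).

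COX5A, a subunit of complex IV, was at 149, 150, 151 and 147 CPM in vehicle, 161, 153, 155 and 157 with SNX631, 164, 157, 162 and 169 with R1881 and 192, 193, 194 and 198 with both. Its interaction at 72 h was 0.18 (SE 0.040, FDR 0.00131). ATP5F1D, the delta subunit of the ATP synthase stalk, was at 138, 131, 133 and 136 CPM in vehicle, 128, 139, 135 and 126 with SNX631, 146, 142, 141 and 141 with R1881 and 162, 162, 177 and 172 with both. Its interaction was 0.26 (SE 0.046, FDR 7.64e-05). For both genes the combined libraries were above all others of the experiment. At 24 h the same interactions were 0.11 (SE 0.064, FDR 0.415) and 0.12 (SE 0.058, FDR 0.309) and did not pass. NDUFC1, with interactions of 0.14 (FDR 0.403) and 0.22 (FDR 0.0214), and SDHD, with 0.12 (FDR 0.37) and 0.21 (FDR 0.0135), did not pass either. The 72 h count of 3 became 7 without SNX631 replicate 2 and 5 without R1881 replicate 1.

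Members were mostly lower in the vehicle libraries of the 72 h experiment than in those of the 24 h experiment. In vehicle, 48 of 80 members were lower at 72 h than at 24 h (16.4% of all genes) and 2 were higher (16.2%), with a median log2 difference of -0.16 against 0.01 over all genes. With library totals as the scaling, 36 members were lower and 4 higher, and all genes split into 12.4% lower and 21.2% higher. The largest falls among members were those of NDUFA3 (-0.52), NDUFA2 (-0.50) and NDUFB2 (-0.47), all accessory subunits of complex I, and ATP5F1D fell by 0.40, COX8A by 0.39 and CYC1 by 0.34. NDUFB4 was at 406 to 417 CPM and 431 to 440 CPM and did not pass (0.08, FDR 0.0196). The members that were higher were NDUFA5, a matrix arm subunit of complex I (0.13), and UQCRHL (0.51), and the count of 2 became 1 without vehicle 24 h replicate 3. By edgeR, the R1881 effect differed between the experiments for 0 members in either direction, against 3.58% of all genes upward and 3.96% downward, with 16 members at an unadjusted p under 0.05 and 0 by DESeq2. The share of all genes under that p is not given here, so the count of 16 cannot be set against it. Without R1881 24 h replicate 2, the R1881 effect was larger at 72 h for 3 members.

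Where a subunit has several genes, their levels were given per kilobase of exon, with the exons of all annotated transcripts of a gene merged. Of the 3 genes for subunit c, which give the same mature protein, ATP5MC2 had 43.0 CPM per kb over the 28 libraries, ATP5MC3 had 30.1 and ATP5MC1 had 26.7. The merged lengths were 3.991, 6.78 and 2.615 kb. By mean CPM alone ATP5MC3 was highest, at 204, with ATP5MC2 at 171 and ATP5MC1 at 69.7, so the order depends on the length used. R1881 moved ATP5MC1 by 0.24 and 0.27, ATP5MC3 by 0.10 (FDR 0.0168) and 0.12 (FDR 9.84e-05), and ATP5MC2 by -0.06 (FDR 0.185) and -0.04 (FDR 0.356). With both R1881 and an inhibitor, ATP5MC3 was at 253, 253 and 252 CPM at 24 h and 213, 212, 216 and 215 at 72 h, and ATP5MC2 at 174, 169 and 171 and at 167, 173, 178 and 174. COX7B had 28.9 CPM per kb and its isoform COX7B2 had 9.2. COX7B rose with R1881 under Senexin B (0.16, FDR 0.00215) and under SNX631 (0.25, FDR 4.1e-07), the former call being lost without Senexin B replicate 1 or R1881 with Senexin B replicate 3 (FDR 0.0172 and 0.0256). COX8A, COX6B1, COX6A1 and COX7A2, the forms found in most tissues, were at 174, 179, 91.4 and 76.0 CPM per kb, while the muscle or testis forms COX6A2, COX6B2, COX7A1 and COX8C were under the minimum of 1 CPM. COX6A1 and COX7A2 passed in none of the 8 comparisons within an experiment. COX6B1 rose at 72 h with R1881 alone (0.13), with R1881 under SNX631 (0.22) and with SNX631 under R1881 (0.16), and COX8A rose with R1881 (0.16) and with R1881 under SNX631 (0.29). For R1881 alone at 72 h, COX6B1, COX8A and ATP5MC3 each kept the call in 24 of 25 alternative runs. UQCRH had 163 CPM per kb and UQCRHL 5.53. The members as a whole ran from 3.55 CPM per kb for NDUFA9 to 668 for ATP5F1B, the catalytic beta subunit of the ATP synthase. NDUFA9 was divided by 10.391 kb of exon and shares its locus and strand with AC005833.1 and AC005832.4. Of its values 85.7% were fractional, against 60.7% for ATP5F1B, 71.4% for COX8A and for COX6A1 and 50% for ATP5MC3, so these levels are uncertain.

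Promoters are shown for members that the comparisons turn on, so that a reader can set the sequence beside the response. RefSeq promoter entries (GRCh38.p14, 250 bases before and 50 after the start of the gene) matched 64 of the 80 members with 76 entries. Entries were not matched for 16 members, among them ATP5F1B, ATP5F1D, ATP5MC3, ATP5MF, COX6C, CYC1, NDUFA4, NDUFB5, NDUFB9, NDUFC2, NDUFS5, SDHC, UQCRB, UQCRFS1P1 and UQCRHL. The sequences follow from 5′ to 3′ on the strand of the gene, for NDUFB4, which fell with R1881, for NDUFS8 and ATP5MC1, which rose with it, and for the 3 subunits of complex II that rose with an inhibitor under R1881. Capitals mark matches on either strand to GCGCANGCG (the core bound by the factor NRF1), CCGGAAG (the ETS family, GABPA included) or AANATGGCG (YY1).
NDUFB4, chr3:120596086-120596385 (plus strand): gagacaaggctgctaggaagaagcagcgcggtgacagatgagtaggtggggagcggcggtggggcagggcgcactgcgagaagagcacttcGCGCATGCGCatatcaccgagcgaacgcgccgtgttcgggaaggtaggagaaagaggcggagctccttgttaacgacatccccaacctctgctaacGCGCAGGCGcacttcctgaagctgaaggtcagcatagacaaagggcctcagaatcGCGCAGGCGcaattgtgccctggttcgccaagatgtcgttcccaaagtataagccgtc
NDUFS8, chr11:68030431-68030730 (plus strand): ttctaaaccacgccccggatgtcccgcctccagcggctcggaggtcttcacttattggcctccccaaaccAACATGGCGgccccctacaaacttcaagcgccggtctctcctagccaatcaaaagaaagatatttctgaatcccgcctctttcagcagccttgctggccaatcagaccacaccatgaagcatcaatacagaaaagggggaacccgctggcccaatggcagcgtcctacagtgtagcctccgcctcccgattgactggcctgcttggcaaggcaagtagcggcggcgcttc
ATP5MC1, chr17:48892537-48892836 (plus strand): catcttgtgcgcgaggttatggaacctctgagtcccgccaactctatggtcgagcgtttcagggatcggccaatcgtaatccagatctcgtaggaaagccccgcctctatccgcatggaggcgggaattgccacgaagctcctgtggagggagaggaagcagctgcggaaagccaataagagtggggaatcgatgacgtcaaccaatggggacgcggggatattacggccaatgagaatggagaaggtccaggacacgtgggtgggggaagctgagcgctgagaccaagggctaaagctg
SDHA, chr5:218070-218369 (plus strand): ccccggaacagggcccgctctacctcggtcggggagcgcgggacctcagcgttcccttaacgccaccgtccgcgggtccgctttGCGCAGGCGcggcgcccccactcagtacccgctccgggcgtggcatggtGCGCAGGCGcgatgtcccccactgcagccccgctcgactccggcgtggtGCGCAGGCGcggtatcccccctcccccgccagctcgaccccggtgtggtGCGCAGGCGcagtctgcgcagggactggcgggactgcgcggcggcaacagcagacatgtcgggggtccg
SDHB, chr1:17053983-17054282 (minus strand): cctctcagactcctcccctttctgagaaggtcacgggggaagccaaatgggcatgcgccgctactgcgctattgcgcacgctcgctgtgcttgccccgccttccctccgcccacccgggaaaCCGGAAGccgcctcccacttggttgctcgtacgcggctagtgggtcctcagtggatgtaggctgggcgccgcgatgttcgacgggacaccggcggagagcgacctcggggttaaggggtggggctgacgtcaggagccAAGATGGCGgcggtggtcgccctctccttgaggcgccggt
SDHD, chr11:112086623-112086922 (plus strand): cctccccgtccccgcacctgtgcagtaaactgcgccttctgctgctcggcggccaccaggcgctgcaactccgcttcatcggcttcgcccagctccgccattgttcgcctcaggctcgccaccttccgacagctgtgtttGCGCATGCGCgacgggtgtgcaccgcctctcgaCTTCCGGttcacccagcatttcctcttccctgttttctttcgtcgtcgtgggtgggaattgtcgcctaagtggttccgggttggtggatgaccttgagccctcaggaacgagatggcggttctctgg
NDUFB4 had 3 separate runs of the NRF1 core and SDHA had 4, SDHD had an NRF1 and an ETS match, SDHB an ETS and a YY1 match, NDUFS8 a YY1 match and ATP5MC1 none of these letters. The NRF1 core was held by NDUFB4, shown for its fall with R1881, and by SDHA, shown for its rise with an inhibitor under R1881. Those are different comparisons, and whether the cores bear on the responses was not tested. Over the 76 member entries, 28.9% held the NRF1 core against 7.52% of all 35114 entries, 27.6% the ETS core against 10.3%, and 25% the YY1 core against 3.19%. The SP1 core GGGCGG was in 61.8% against 45%, CCAAT in 34.2% against 34.6%, TATAAA in 7.89% against 11.5%, and AGAACA, the core of an androgen response element, in 11.8% against 14.8%. The CCAAT and ETS cores and the others were searched on both strands, and overlapping matches of different cores were each counted. All entries were taken whether or not their genes were expressed in these cells, whereas members had a mean of at least 1 CPM. The percentages thus set unlike groups of genes side by side. A match is a string of letters and no shown binding site.

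Of the factors known to act on these genes, NRF1 and GABPA, which bind many of their promoters, passed in none of the 8 comparisons within an experiment. NRF1 was at 14.2 ± 0.621 CPM in vehicle and 13.5 ± 1.61 with R1881 at 24 h (SD, n = 3), and GABPA at 44.8 ± 1.55 and 45.2 ± 4.49. PPARGC1A, the coactivator of mitochondrial biogenesis, had at most 8 counts in a library, too few for a direction. PPARGC1B, its relative, went from 6.3 ± 0.955 CPM in vehicle to 9.99 ± 1.15 with R1881, 10.9 ± 0.621 with Senexin B and 22.3 ± 2.64 with both at 24 h. Likewise it went at 72 h from 6.24 ± 0.948 CPM to 9.67 ± 1.06, 9.25 ± 0.677 with SNX631 and 18.2 ± 0.895 with both. It rose in all of these comparisons, by 0.62 with R1881 at each time, by 1.16 with Senexin B under R1881 and by 0.90 with SNX631 under R1881. ESRRA, the nuclear receptor it serves, went from 71.3 to 98.2 CPM between vehicle and both agents at 24 h and from 62.6 to 81.7 at 72 h, and rose with R1881 under Senexin B (0.35) and SNX631 (0.32). TFAM, which packs and transcribes mitochondrial DNA, rose with R1881 (0.34 and 0.12), with Senexin B (0.14) and with SNX631 (0.13). LRPPRC, which stabilises mitochondrial messengers, rose with Senexin B (0.35) and SNX631 (0.22), and was at 0.00 (FDR 0.906) with R1881 at 24 h and fell by 0.21 at 72 h. POLRMT, the mitochondrial RNA polymerase, rose with Senexin B under R1881 (0.18, FDR 0.00762) and passed in no other comparison within an experiment.

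Other genes of the organelle were counted by function. Of 56 assembly factors of the chain, 17 rose and 7 fell with R1881 at 24 h, and 19 and 10 at 72 h (medians 0.13 and 0.13). Of 34 tested genes for the expression of mitochondrial DNA, 19 rose and 2 fell, and then 18 and 3 (0.17 and 0.15). Of 17 tested genes of organelle content, such as the VDAC pores and the import machinery, 12 rose at 24 h, and 13 rose and 1 fell at 72 h (0.26 and 0.16). Of 9 tested biogenesis regulators 4 rose at 24 h, and 5 rose and 1 fell at 72 h. These counts are to be read against the same background of 26.3% up and 22.1% down at 24 h and 27.6% and 24.6% at 72 h. Past 1.5-fold with R1881 at both times, besides PPARGC1B, were TIMM23, the channel of the inner membrane import machine (0.74 and 0.76), COX18, which inserts a complex IV subunit into the membrane (0.72 and 0.73), CMC2, a complex IV biogenesis factor (1.37 and 1.26), and NDUFAF4, a complex I assembly factor, which fell by 0.76 and 0.80. NDUFAF4 went from 40.3 ± 1.16 CPM in vehicle to 23.7 ± 0.992 with R1881 at 24 h and rose with either inhibitor alone, by 0.53 with Senexin B and by 0.54 with SNX631. Of 8 tested subunits that the symbol pattern leaves out, 3 rose and 1 fell with R1881 at 24 h and 3 rose at 72 h.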

How the data were processed

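RNA-seq of 28 LNCaP libraries was used. The authors deposited 1 table of expected counts per gene, of which 16.9% of the values above 0 were fractional. The notes of the submitters name FastQC, cutadapt 2.8, STAR 2.7.2b and featureCounts (Subread 2.0.3) and the builds GRCh38.p13 and GRCm39, and whether counting used strand is not given in the sources used here. These deposited estimated counts were rounded to whole numbers. Groups came from the labels, and the study describes biological replicates. Genes were filtered with filterByExpr (minimum count 10, minimum total 15), scaled by TMM and tested with edgeR 4.0.16 (quasi-likelihood, R 4.3.3) within each experiment, with Benjamini-Hochberg adjustment over 15948 genes at 24 h and 16074 at 72 h, and 16672 for comparisons between experiments. The study's limits were an FDR under 0.01 and a fold over 1.5. DESeq2 1.42.0, other scalings and filters, replicate blocks and leaving out each library were tried. The script was tested on simulated data.

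The members and lists (assembly factors, mitochondrial DNA expression, organelle content, biogenesis regulators, subunits that the pattern leaves out, cell markers) were chosen with earlier results of these data known. Genes were named by rule: members past both limits in any comparison, the 6 highest and 6 lowest called alike for R1881 in both experiments, the 4 highest and 4 lowest called alike for both inhibitors, SDHA to SDHD, CYC1, UQCRFS1, isoform families and regulators. Other members named complete a count of 5 or fewer or were chosen after their values were seen. Replicates of a pair differed beyond counting noise in 36 of 36 pairs. Gene positions were matched by identifier to GENCODE 29 and promoters to RefSeq on GRCh38.p14. Mitochondrially encoded genes were not analysed here. The values of 1 member are not reported here, although it is included in the counts.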

Additional observations from a re-analysis of the deposited data

Results flagged for a closer look

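Among 104 groups of 4 libraries looked at for named members, 5 held a library set apart from the other three by Dixon's test, and chance alone sets apart about 1 in 20 groups. SDHA was at 72.0 CPM in vehicle 72 h replicate 4, with the rest at 69.7 to 69.96. COX7B2 was at 6.76 CPM in vehicle 72 h replicate 2, against 8.41 to 8.52. NDUFA6 was at 52.2 CPM in SNX631 replicate 3, against 54.4 to 54.6. COX6B1 was at 143 CPM in SNX631 replicate 4, against 151 to 152. NDUFV1 was at 207 CPM in R1881 with SNX631 replicate 4, against 198 to 199.

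The R1881 effect differed with the inhibitor by the interaction test of edgeR for NDUFB4 at 24 h (0.22 on the log2 scale) and, at 72 h, for NDUFB4 (0.16), COX5A (0.18) and ATP5F1D (0.26).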

How the results depend on the processing

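Of 97 calls of named genes, 66 were kept under every alternative run. Of their 2245 alternative values, 2123 kept the call, 122 lost it and 0 turned direction.

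Members were counted as higher or lower by FDR alone, with no limit on fold change unless stated. A count is given only where it differed over 1.5 times from the count of the main run above. With library totals as the scaling the counts were 6 and 13 for R1881 at 24 h, 15 and 5 for R1881 under Senexin B, 3 and 8 for Senexin B, 4 lower for Senexin B under R1881, 9 and 9 for R1881 at 72 h, 28 and 9 for R1881 under SNX631, 1 higher for SNX631, 16 higher for SNX631 under R1881 and 4 higher for vehicle at 72 h against 24 h. At an FDR under 0.05 they were 26 and 5 for R1881 at 24 h, 2 lower for R1881 under Senexin B, 7 lower for Senexin B, 3 lower for Senexin B under R1881, 3 for the 24 h interaction, 9 and 7 for SNX631, 11 for the 72 h interaction and 4 for the difference of the R1881 effects. The share of all genes at an FDR under 0.05 is not given here, so these counts cannot be set against it. With the 1.5-fold limit added, 1 member was lower for R1881 at each time and 1 higher for R1881 under each inhibitor, and all other counts were 0.

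Without a filter on low counts, 4 were lower for R1881 at 24 h, 1 lower for R1881 under SNX631, 6 in the 72 h interaction, 1 higher in vehicle at 72 h and 3 in the difference. With the trend on GC content and length removed, an alternative added after seeing the data, 9 were lower for R1881 at 24 h, 4 lower for R1881 under Senexin B, 7 higher for SNX631, 6 in the 72 h interaction, 1 higher in vehicle at 72 h and 1 in the difference. DESeq2 gave 1 lower for R1881 at 24 h, 2 lower for Senexin B, 1 lower for R1881 under SNX631 and 1 higher for SNX631. Its size factors in edgeR gave 2 lower for Senexin B under R1881, 1 lower for R1881 under SNX631 and 5 in the 72 h interaction. A filter of a mean of 1 CPM gave 2 lower for Senexin B under R1881 and 1 higher for SNX631. All 28 libraries in 1 fit gave 2 lower for Senexin B under R1881, 2 in the 24 h interaction, 1 lower for R1881 under SNX631 and 5 in the 72 h interaction. Of all genes, 11.9% were lower for R1881 at 24 h without a filter, 25.1% with the trend removed and 18.2% by DESeq2. With the trend removed, 24.4% were lower for R1881 under Senexin B and 15% higher for SNX631. The 72 h interaction was positive for 1.79% without a filter, 3.88% with the trend removed, 3.14% with the DESeq2 size factors and 3.01% in 1 fit. The cause of these shifts was not tested.

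Replicate numbers did not pair the libraries: same-numbered deviations correlated at -0.014 to 0.074 over 18 pairs at 24 h and -0.055 to 0.074 over 24 pairs at 72 h. The replicate block gave 2 lower for Senexin B under R1881 (10.5% of all genes) and 1 higher for SNX631 (14.2%). With the GC and length trend also removed, the block gave 10 lower for R1881 at 24 h (25.4% of all genes) and 5 lower for R1881 under Senexin B (25%). It gave 7 higher for SNX631 (15.1%) and 6 in the 72 h interaction (3.88% positive).

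Leaving out each library in turn gave 12 to 22 higher and 1 to 4 lower for R1881 at 24 h, 27 to 37 and 1 to 2 under Senexin B, 2 to 8 and 2 to 5 for Senexin B, 13 to 23 and 1 to 2 for it under R1881, and 0 to 1 in the interaction. At 72 h it gave 24 to 36 and 1 for R1881, 47 to 52 and 1 to 2 under SNX631, 1 to 3 and 2 to 5 for SNX631, 18 to 27 and 2 for it under R1881, and 2 to 7 in the interaction. It gave 1 to 3 and 41 to 49 for vehicle between experiments and 0 to 3 for the difference. The share of all genes with a library left out is not given here, so these counts, and those given above, cannot be set against it. Alternatives on mitochondrially encoded genes, among them totals without those genes, were not run.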

Other observations

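Of 5 nuclear copies of mitochondrial genes, 2 rose in all 4 inhibitor comparisons, and these values were chosen after seeing the data. Of all genes, 13.5% rose with Senexin B, 12.7% with Senexin B under R1881, 14.4% with SNX631 and 17.8% with SNX631 under R1881. The share of all genes that rose in all 4 is not given here, so the count of 2 cannot be set against it. MTATP6P1 was at 297 to 303 CPM in vehicle and 359 to 397 with Senexin B at 24 h, and at 214 to 269 in vehicle and 271 to 305 with SNX631 at 72 h. By edgeR it rose with Senexin B (log2 fold change 0.31, SE 0.043, FDR 6.63e-07) and with SNX631 (0.28, SE 0.041, FDR 6.25e-07). It also rose with Senexin B under R1881 (0.19) and SNX631 under R1881 (0.23), and was at -0.03 and 0.04 with R1881 alone, which did not pass. It fell by 0.15 with R1881 under Senexin B (FDR 0.00434) and was lower in vehicle at 72 h than at 24 h (-0.31, FDR 3.53e-07). MTND2P28 rose in the same 4 inhibitor comparisons, by 0.38, 0.30, 0.25 and 0.31, and R1881 alone gave 0.04 and -0.14, which did not pass. MTCO1P12 rose with Senexin B alone (0.41, FDR 8.3e-05) and did not pass with Senexin B under R1881 (0.09, FDR 0.472), with SNX631 (0.17, FDR 0.0895) or with SNX631 under R1881 (0.21, FDR 0.0276). MTCO2P12 and MTCO3P12, at 0.714 to 3 CPM, passed in none of the 4, with MTCO2P12 at 0.31 to 0.47 and MTCO3P12 at -0.005 to 0.65. Whether reads of the mitochondrial genes themselves were counted in these copies was not tested.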
